A study of Mus musculus with 48 samples.

Results

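The nuclear genes for the subunits of respiratory chain complexes I, II and III and of ATP synthase were examined in 6 tissues of mice after Roux-en-Y gastric bypass (RYGB) or sham surgery. They were taken by name: every gene whose symbol starts with Nduf, one of the letters a, b, c, s or v and a number, the 4 genes Sdha to Sdhd, and every gene whose symbol starts with Uqcr or Atp5. This gave 64 genes of the 15541 genes that were listed in at least 1 tissue. By name there were 37 complex I genes, among them Ndufa4 and Ndufa4l2, 4 complex II genes, 8 complex III genes and 13 ATP synthase genes, and 2 further genes, Atp5s and Atp5sl, that carry an Atp5 name without coding for a structural subunit. All 64 were listed in liver, WAT and muscle, and 63 in each intestinal table, where Ndufa4l2 was not listed. All listed members passed the minimum mean of 1 CPM (counts of a gene scaled to a common library total) in the tissue where they were listed, so none was dropped before testing. Atp5g2 and Atp5l, further ATP synthase subunit genes, were not analysed here, and the subunit genes of complex IV (Cox genes) were kept apart as a comparison list.

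The respiratory chain sits in the inner mitochondrial membrane. Complex I takes electrons from NADH and complex II takes them from succinate. Both pass them through ubiquinone to complex III and then to complex IV, and the proton gradient built on the way drives ATP synthase, also called complex V. The subunits come from 2 genomes, since a few core subunits are encoded by mitochondrial DNA and the others, including all members here, by nuclear genes. Oxidative muscle fibres and absorptive intestinal cells are known for many mitochondria, while the white adipocyte holds few in a thin rim of cytoplasm.

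The animals were male C57Bl6 mice that had become obese on a high fat diet. They had RYGB, in which food is led from a small gastric pouch straight into the jejunum, or sham surgery, and both groups then received the same liquid elemental diet. The labels also name a later return to the high fat diet, with no day for it. The mice analysed here were killed 9 days after surgery, at 10 am after a fast. There were 48 libraries: 4 per surgery for liver, for subcutaneous white adipose tissue (WAT) and for gastrocnemius muscle, 3 RYGB with 4 sham for duodenal and again for jejunal villi, and 5 per surgery for ileal villi. Villi were scraped off after a short time in EDTA, and polyadenylated RNA was sequenced with a stranded kit. The labels give a replicate number but do not say that each library was a separate mouse, so p-values measure the spread between these libraries.

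The values were CPM rounded to 1 decimal. Sequencing depth is unknown, so no counting error can be given. Markers of the labelled tissue were present in every tissue checked: the 5 hepatocyte markers summed to between 78200.3 and 115885.4 CPM in liver, the 6 adipocyte markers to between 8507 and 25845 CPM in WAT, the 7 fast fibre markers to between 85379 and 152618 CPM in muscle, and the 6 enterocyte markers to between 32476 and 82416 CPM in the 3 villus tissues. In bulk tissue, fewer cells of a type and less RNA per cell cannot be told apart. Several marker lists differed between the surgeries, and those with the most bearing on a tissue are given beside its result. In WAT the 8 B cell markers summed to 13.7 to 25.6 CPM in sham libraries and to 1088 to 2905 CPM in RYGB libraries, and all 8 passed the test as higher after RYGB.

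Muscle had the largest mean share of these transcripts. The 61 subunit genes that were listed in all 6 tissues, leaving out Atp5s and Atp5sl, summed to 13685 ± 849.7 CPM in sham muscle (SD, n = 4), which is 1.37% of all reads counted. Sham duodenum followed with 12036 ± 1092 CPM (SD, n = 4), sham jejunum with 10719.6 ± 2172 CPM (SD, n = 4) and sham liver with 10031 ± 2163 CPM (SD, n = 4). The lowest muscle library, at 12677.5 CPM, was below the highest duodenum library, at 13193 CPM, and duodenum, jejunum and liver lay within each other's spread. The lowest sums were in sham ileum, at 7967 ± 973 CPM (SD, n = 5), and sham WAT, at 6359 ± 1300 CPM (SD, n = 4), which also lay within each other's spread. The tables were normalized separately for each tissue, so this order is a description and no test was made across tissues. After RYGB the sums were 16441 ± 1494 CPM in muscle, 7930.1 ± 1941 CPM in WAT and 9784 ± 679.5 CPM in liver (SD, n = 4 each), 13237 ± 1543 CPM in jejunum and 12188 ± 629 CPM in duodenum (SD, n = 3 each) and 10418 ± 2530.2 CPM in ileum (SD, n = 5), so that muscle stayed highest and WAT lowest by the mean.

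The order differed by gene and by complex. The highest sham mean was in muscle for 41 of the 61 genes, in duodenum for 11, in liver and in jejunum for 4 each, and in WAT for 1, which was Ndufv3, an accessory subunit of complex I. The lowest sham mean was in ileum for 33 genes and in WAT for 28. For 15 of the 61 genes, the lowest muscle library of either surgery was above the highest library of every other tissue. Ndufs7, a core subunit that carries an iron-sulphur cluster, had the largest ratio of the sham muscle mean to the next highest tissue, at 2.49. Ndufs1, the largest iron-sulphur core subunit, had a ratio of 1.98.

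Some genes and the sum of 2 complexes departed from this order. Atp5g3, 1 of the 3 genes for the same ATP synthase c subunit, was highest in sham duodenum at 710.1 CPM against 336 CPM in sham muscle. Sdhd, a membrane anchor of complex II, was highest in sham duodenum among these sham means at 448 CPM against 217 CPM in sham muscle. The complex II sum was 1646 ± 129 CPM in sham duodenum and 1389.55 ± 125 CPM in sham muscle (SD, n = 4 each), so for complex II the duodenum mean was the higher. The complex III sum was 1817 ± 224 CPM in sham duodenum and 1712 ± 112 CPM in sham muscle (SD, n = 4 each), within each other's spread. Sdha and Atp5g1 were highest in sham muscle, at 755 and 10.7 CPM. The median ratio of a gene's sham mean to its sham WAT mean was 2.17 in muscle, 1.65 in duodenum, 1.52 in liver, 1.46 in jejunum and 0.955 in ileum.

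**Figure D1:**
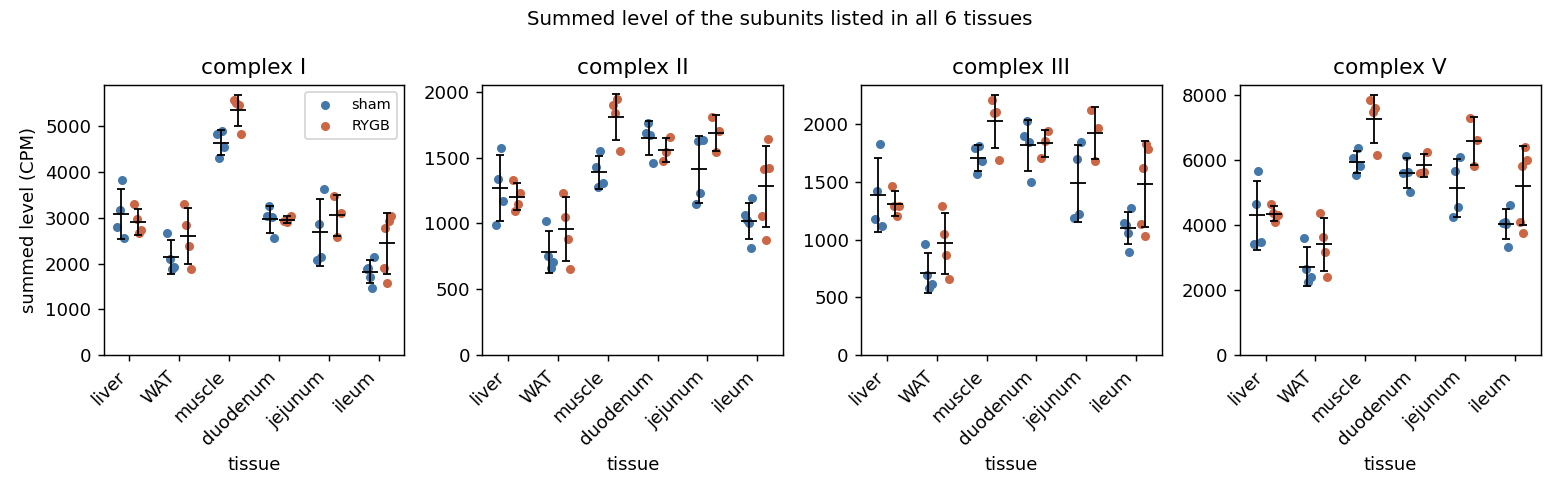
Summed CPM of the subunit genes of complexes I, II, III and V in the 6 tissues for sham and RYGB libraries. Each point is a library and each black bar is the mean ± SD; muscle is highest for complexes I and V, while the complex II mean of sham duodenum (1646 CPM) is above that of sham muscle (1389.55 CPM).

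Levels can be compared between genes only per length. Per kilobase of the principal transcript, sham muscle had 1057 CPM of Atp5b, the catalytic beta subunit of ATP synthase, 715 CPM of Atp5a1, the alpha subunit, and 572 CPM of Ndufa4, a subunit now placed in complex IV. The lowest were Ndufa4l2 at 5.22, Atp5s at 8.64 and Atp5sl at 9.67 CPM per kilobase, none of which shares any window with another gene. Next came Ndufb4, an accessory subunit of complex I, at 14.9 CPM per kilobase and Atp5g1, another c subunit gene, at 17.9 CPM per kilobase. Some members share sequence with other genes: 66.6% of the 50-base windows of the Atp5h transcript and 66.0% of those of Atp5g1 also occur in other annotated genes, mostly processed pseudogenes. Members with at least 25% of their windows shared (12 genes) had a median of 83.1 CPM per kilobase in sham muscle, against 176 CPM for the 36 members with under 5%. How the counting treated reads with several matches is not given in the sources used here, so the levels of the shared genes are uncertain, and the part of shared sequence in their low level was not tested.

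**Figure D2:**
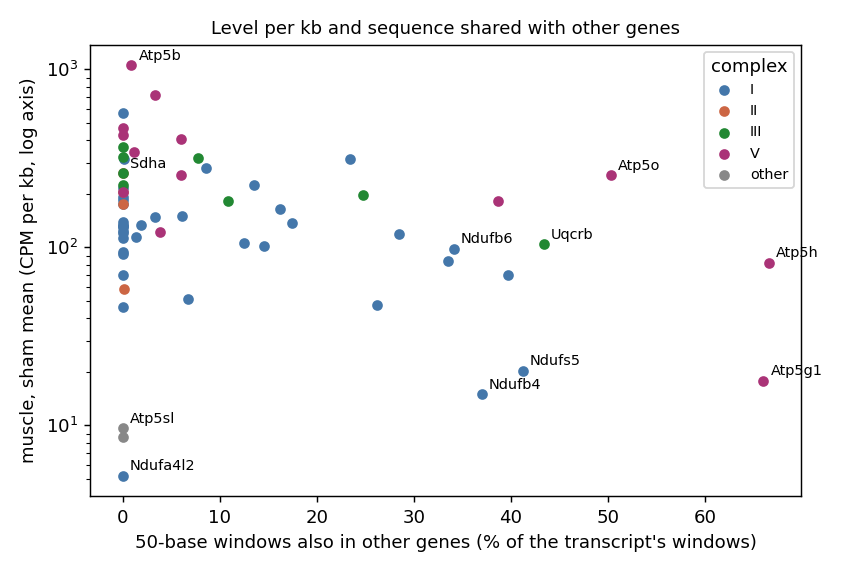
Percent of 50-base windows of each member's transcript that also occur in another annotated gene (x axis) against its sham muscle level in CPM per kilobase (y axis, log scale). Each point is a gene; the 12 genes with at least 25% shared windows have a median of 83.1 CPM per kilobase and the 36 genes under 5% a median of 176.

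For each tissue, RYGB was compared with sham surgery to ask whether the operation changed these genes under a common diet. The test was limma on log2(CPM + 1) with Benjamini-Hochberg adjustment over all genes of the tissue, a change was called at an adjusted p under 0.05, and each fold change below is the RYGB mean minus the sham mean on that log2 scale. Few members passed: 5 in WAT, 1 in ileum and 0 in liver, muscle, duodenum and jejunum. The direction was nevertheless shared within most tissues. The median member fold change was 0.39 in ileum, 0.28 in WAT, 0.21 in jejunum, 0.20 in muscle, −0.00 in duodenum and −0.08 in liver. Over all genes tested the corresponding medians were −0.09, 0.11, −0.04, 0.05, 0.12 and 0.13. After rescaling each library by the median ratio to a reference, the member medians were 0.50 in ileum, 0.17 in WAT, 0.28 in jejunum, 0.14 in muscle, −0.13 in duodenum and −0.23 in liver.

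**Figure D3:**
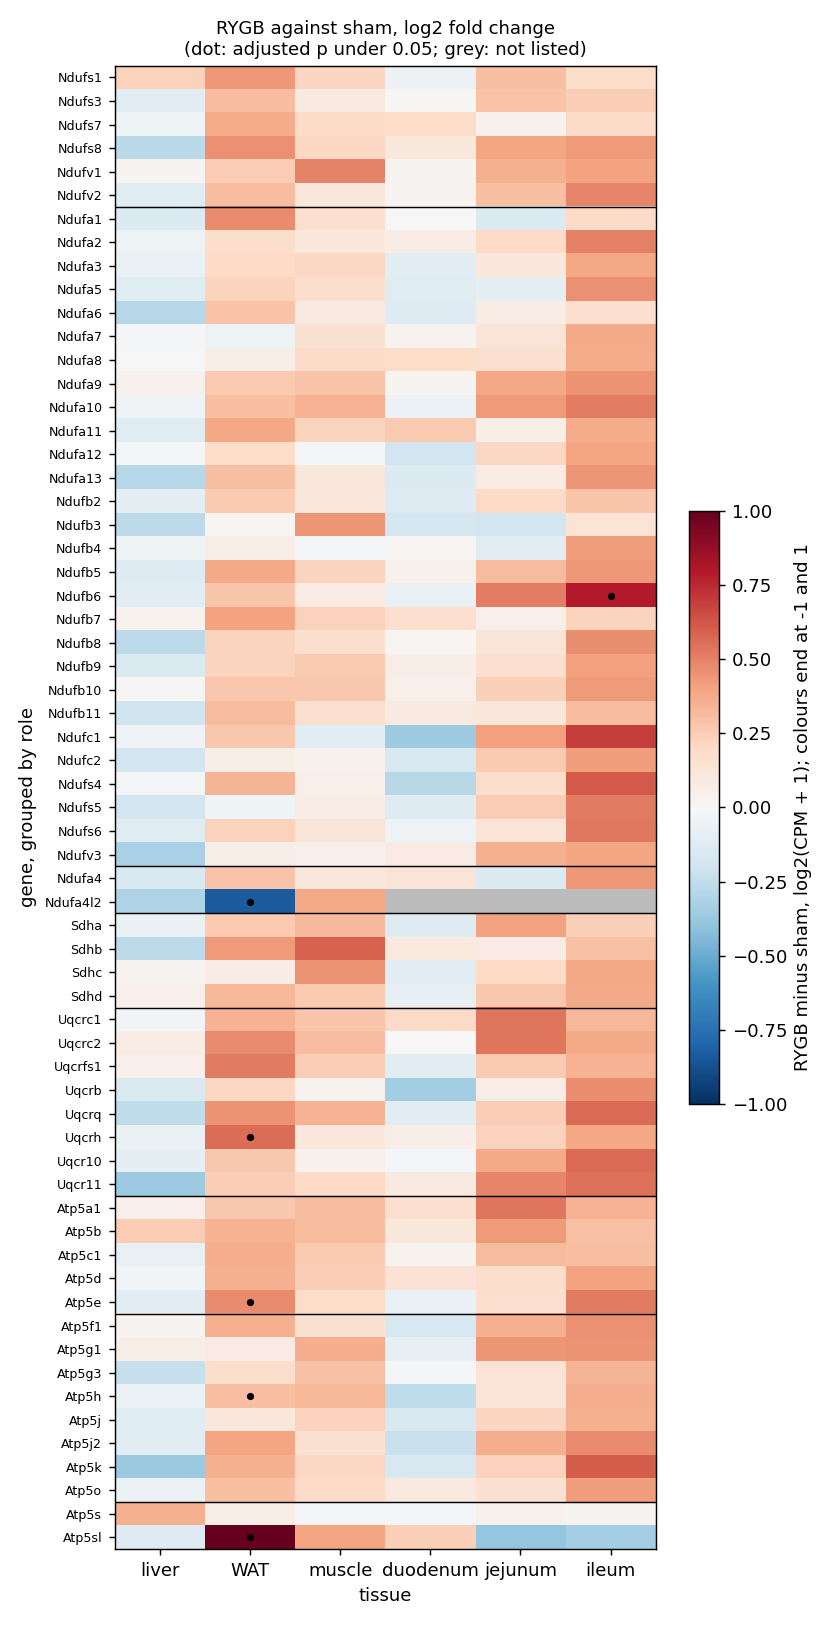
Log2 fold change of RYGB against sham for the members but 1 (rows, ordered by role in the complex) in the 6 tissues (columns), as colour. A dot marks an adjusted p under 0.05 and grey marks a gene that was not listed; the 5 dots of WAT and the 1 dot of ileum are the calls, while the medians run from 0.39 in ileum to −0.08 in liver.

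In WAT, 5 of 64 members changed after RYGB: Atp5sl, Uqcrh, Atp5e and Atp5h rose and Ndufa4l2 fell. Of all genes tested in WAT, 37.2% passed, 23.5% as higher and 13.8% as lower, so the member share of 4 higher and 1 lower is below the background. At an unadjusted p under 0.05, 9 members were higher and 1 lower, against 30.6% and 19.4% of all genes. Of the 64 members, 61 had a fold change above 0, against 59% of all genes, and after rescaling 52. With an absolute fold of at least 1.5 added, 2 members passed (Atp5sl and Ndufa4l2), against 24.1% of all genes.

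Atp5sl had the largest change of the members. It is annotated as Dmac2, a factor for complex I assembly, at chr7:25619414-25625551 on the plus strand (GRCm38, ENSMUSG00000057229). The RYGB libraries 1 to 4 had 37.6, 45.8, 52.3 and 76.8 CPM and the sham libraries 20.4, 17.5, 20.9 and 20.9 CPM. Every RYGB library was above every sham library. In WAT this pattern was held by 3 of 64 members (Atp5sl, Uqcrh and Atp5h), against 26.1% of all genes. The means were 53.1 ± 16.9 and 19.9 ± 1.63 CPM (SD, n = 4 each), and Atp5sl rose by 1.33 on the log2 scale (SE 0.196, limma adjusted p = 0.00239). It passed the test in all 15 processing settings run, with adjusted p from 0.000406 to 0.0108. The summed B cell markers were 1088, 1681, 2058 and 2905 CPM in the same RYGB libraries, the same order as Atp5sl, and the 8 T cell markers ran from 361 to 1386 CPM against 13.3 to 24.8 CPM in sham. Their part in the Atp5sl result was not tested. Outside WAT, Atp5sl had fold changes of −0.34 in ileum, −0.38 in jejunum, 0.39 in muscle, 0.24 in duodenum and −0.13 in liver, and none of these passed.

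Uqcrh, the hinge protein of complex III that helps electrons pass from cytochrome c1, lies at chr4:116066965-116075071 on the minus strand (ENSMUSG00000063882). The RYGB libraries had 149.8, 127.6, 120.4 and 114.7 CPM and the sham libraries 112.6, 79.2, 77.5 and 80.4 CPM. The groups did not overlap, but sham library 1 lay close to the RYGB libraries. Uqcrh rose by 0.56 (SE 0.144, limma adjusted p = 0.0183) and passed in 10 of 15 settings.

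Atp5e codes for the epsilon subunit in the central stalk of ATP synthase and lies at chr2:174461072-174464105 on the minus strand (ENSMUSG00000016252). Its RYGB libraries had 109.9, 95.9, 84.7 and 75.4 CPM and its sham libraries 80.5, 65.0, 59.1 and 57.2 CPM. RYGB library 4 was below sham library 1, so the groups overlapped. Atp5e rose by 0.48 (SE 0.148, limma adjusted p = 0.0348). Atp5h, the d subunit of the peripheral stalk, lies at chr11:115415689-115419962 on the minus strand (ENSMUSG00000034566). It had 45.2, 43.3, 39.5 and 38.3 CPM after RYGB and 37.9, 32.3, 33.0 and 31.0 CPM after sham. The groups did not overlap, by a margin of 38.3 to 37.9 CPM, and Atp5h rose by 0.30 (SE 0.0996, limma adjusted p = 0.0417). Atp5e and Atp5h each passed in 7 of 15 settings, and leaving out a single library other than RYGB library 4 or sham library 1 lost both calls.

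Ndufa4l2 was the member that fell in WAT. It is a relative of Ndufa4 known as a target of the hypoxia-inducible factor, at chr10:127514967-127517154 on the plus strand (ENSMUSG00000040280). The RYGB libraries had 10.9, 11.8, 10.2 and 5.3 CPM and the sham libraries 17.8, 23.5, 13.8 and 14.8 CPM. Every RYGB library was below every sham library, a pattern shared by 15% of all genes in WAT. Ndufa4l2 fell by 0.83 on the log2 scale (SE 0.249, limma adjusted p = 0.0304) and passed in 11 of 15 settings. It was near the minimum in liver, at 1.40 CPM in sham (fold change −0.31, adjusted p = 0.25), and at 4.88 CPM in sham muscle (0.38, adjusted p = 0.283), and neither passed.

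**Figure D4:**
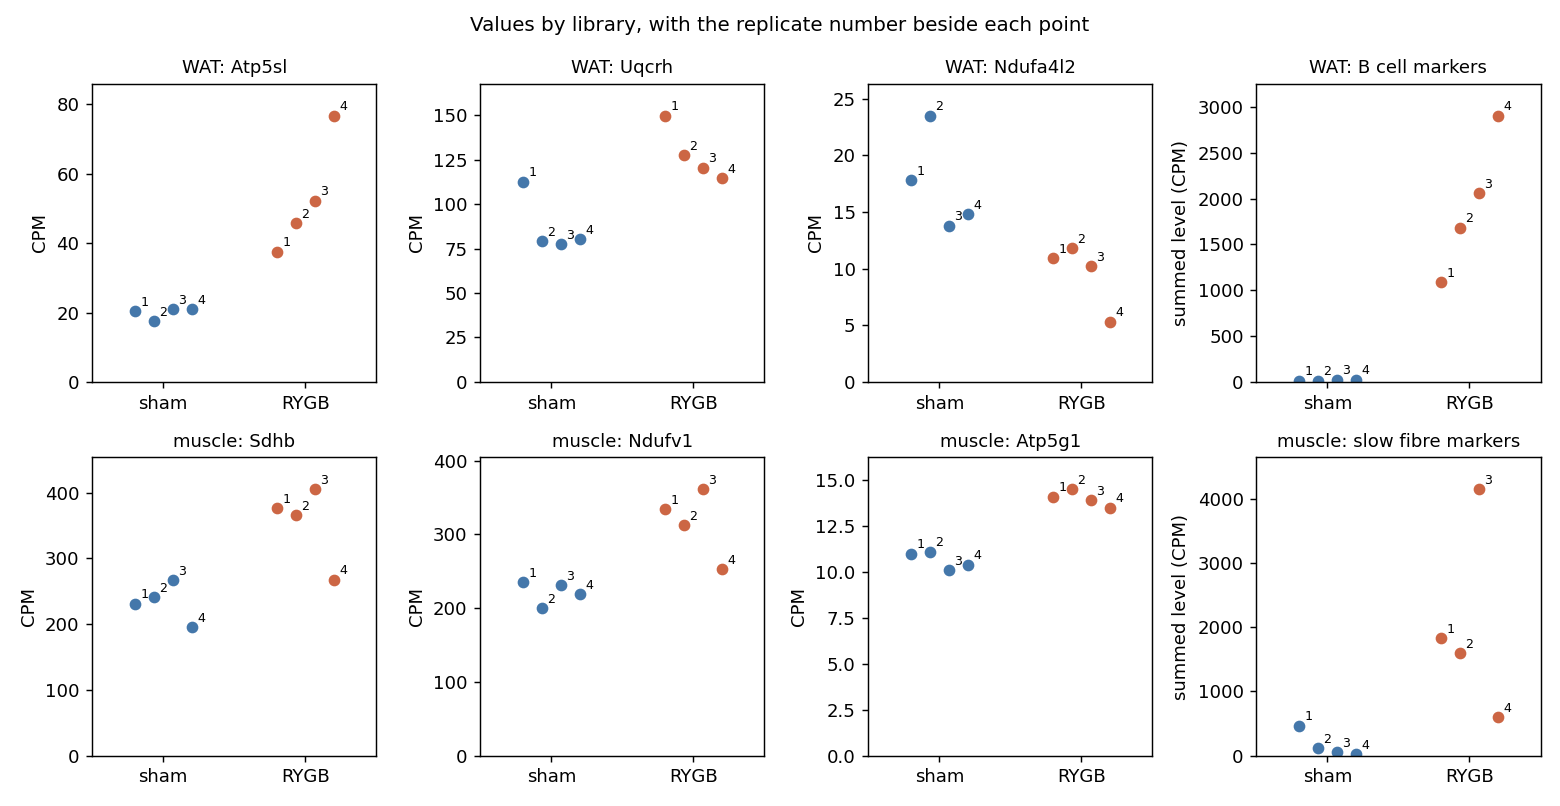
CPM of Atp5sl, Uqcrh and Ndufa4l2 with the summed B cell markers in WAT, and of Sdhb, Ndufv1 and Atp5g1 with the summed slow fibre markers in muscle, by library (points, with replicate numbers) for sham and RYGB. In WAT, Atp5sl and the B cell sum are both highest in RYGB library 4 (76.8 and 2905 CPM), where Uqcrh is lowest among the RYGB libraries (114.7 CPM).

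The member level differed widely among the RYGB libraries of WAT. The median member deviation from the sham mean was 0.65, 0.44, 0.20 and −0.13 (log2) in RYGB libraries 1 to 4, and 0.34, −0.02, −0.20 and −0.14 in sham libraries 1 to 4. RYGB library 4 thus lay within the sham range, and sham library 1 was above the sham mean for 64 of 64 members. The adipocyte markers had the same order over the RYGB libraries, at 18958, 16652, 15735 and 8507 CPM, and 1 of 6 passed as lower. Over sham libraries 1 to 4 they did not have the order of the members, at 20204, 19281, 24760 and 25845 CPM. There they were highest in sham libraries 3 and 4, where the member median was lowest. The macrophage markers ran from 859 to 1634 CPM after RYGB and 1589 to 2526 CPM in sham, with 3 of 8 passing as lower, and the 3 listed keratinocyte markers from 3.1 to 5.6 CPM and 2.8 to 129.8 CPM, with 2 passing as lower. The 5 listed markers of brown and beige adipocytes, which include Ucp1, the uncoupling protein, and the complex IV isoform gene Cox7a1, summed to 139.4, 119.3, 57.6 and 28.6 CPM in RYGB libraries 1 to 4 and to 74.4, 51.6, 16.1 and 36.8 CPM in sham libraries 1 to 4. This sum had the order of the member deviation over the RYGB libraries and was highest in sham library 1, and 5 of 5 markers were above 0 (median 0.62) while 0 passed with limma. The part of cell makeup in these member values was not tested. Without RYGB library 4, 22 members passed, 21 of them higher, against 36.4% of all genes.

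The complexes did not stand apart from each other in WAT. The median fold change was 0.27 for the 37 complex I genes, 0.30 for complex II, 0.40 for complex III and 0.35 for ATP synthase. Uqcrfs1, the Rieske iron-sulphur protein of complex III, had 154 ± 50.7 CPM after RYGB and 105 ± 25.8 CPM in sham (0.52, limma adjusted p = 0.131). Sdhb, the iron-sulphur subunit of complex II, had 140.2 ± 37.7 and 103 ± 23.4 CPM (0.43, adjusted p = 0.139), and Atp5b had 1324 ± 397 and 1031 ± 285 CPM (0.35, adjusted p = 0.332; SD, n = 4 each). None of these passed. Samples came from several flow cell lanes, and within lane 5, with 2 libraries a group, the member median was 0.16 against 0.10 for all genes, while within lane 6, with 1 library a group, it was 0.02 against 0.17. Lane 5 leaves out RYGB libraries 1 and 4, with the highest and lowest RYGB member medians (0.65 and −0.13). It keeps sham library 1, the highest sham library (0.34), and leaves out sham libraries 3 and 4, the lowest (−0.20 and −0.14). With the lane in the fit, 2 members passed, 1 higher and 1 lower, against 43.9% of all genes.

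In muscle, 0 of 64 members passed with limma, and 0 of all 11966 genes tested did. At an unadjusted p under 0.05, 28 members were higher and 0 lower, against 10% and 4.56% of all genes. The fold change was above 0 for 60 of 64 members, against 62.9% of all genes, and 9 members had every RYGB library above every sham library, against 4.77% of all genes, and 0 had every RYGB library below every sham library, against 2.62%. The smallest adjusted p was 0.116, held by Sdhc, Ndufv1 and Atp5g1.

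Complex II had the highest median fold change of the complexes in muscle, at 0.39, against 0.16 for complex I, 0.22 for complex III and 0.25 for ATP synthase. All 4 of its genes had an unadjusted p under 0.05. Sdhb had 376.1, 366.1, 405.2 and 267.4 CPM in RYGB libraries 1 to 4 and 231.5, 241.4, 266.6 and 195.8 CPM in sham libraries 1 to 4. RYGB library 4 was just above the highest sham library. The fold change was 0.59 (SE 0.141, limma adjusted p = 0.122). Sdhc, a membrane anchor, had 257.2, 253.7, 278.4 and 218.8 CPM after RYGB and 189.4, 164.3, 208.1 and 174.4 CPM in sham, with a fold change of 0.45 (SE 0.102, adjusted p = 0.116). Sdha, the flavoprotein that oxidises succinate, had 998.1, 952.4, 1003.7 and 822.1 CPM against 794.0, 666.2, 814.7 and 745.4 CPM (0.32, adjusted p = 0.205). For these 3 genes the groups did not overlap, and for Sdhd, at 258 ± 9.92 and 217 ± 30.7 CPM (0.26, adjusted p = 0.287; SD, n = 4 each), they did.

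In complex I, Ndufv1, the subunit that binds NADH, had 334.0, 312.9, 361.2 and 252.7 CPM in RYGB muscle and 235.4, 199.7, 231.1 and 218.9 CPM in sham muscle. The groups did not overlap (0.50, SE 0.114, limma adjusted p = 0.116). Ndufa10, an accessory subunit, had 257.1, 249.0, 266.5 and 208.0 CPM against 195.0, 180.9, 205.1 and 185.1 CPM (0.35, SE 0.0928, adjusted p = 0.147). In ATP synthase, Atp5g1 had 14.1, 14.5, 13.9 and 13.5 CPM against 11, 11.1, 10.1 and 10.4 CPM. Here RYGB library 4 was as high as the others (0.37, SE 0.0819, adjusted p = 0.116). Atp5b had 2534 ± 281 CPM against 2025 ± 124 CPM (0.32, adjusted p = 0.254; SD, n = 4 each).

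Fibre markers moved in the same libraries. The 6 slow fibre markers summed to 1829, 1589.7, 4143 and 597 CPM in RYGB muscle and to 464, 118.5, 52.6 and 21.3 CPM in sham muscle. The median fold change of the 6 was 4.18, and 0 passed with limma. The 7 fast fibre markers summed to 85379 to 123738 CPM after RYGB and to 128207 to 152618 CPM in sham, with no overlap. By gene they were mixed, with 3 of the 7 above 0 and 4 below, a median of −0.12, and 0 passed with limma. The 4 listed genes of the smooth muscle list (Myh11, Acta2, Tagln and Des) summed to 3807 to 4110.1 CPM after RYGB. In sham they summed to 2686 to 2919 CPM, also with no overlap, and 0 passed. Des is not specific to smooth muscle in this tissue, so the sum is not a measure of smooth muscle alone. RYGB library 4 had both the lowest slow fibre sum and the lowest member median of the RYGB libraries, at 0.02 against 0.25 to 0.29 in the other 3. The part of fibre or cell makeup in the member values was not tested. Without RYGB library 4, 5 members passed as higher, against 2.1% of all genes, with Ndufv1 at an adjusted p of 0.0191 and Sdhb at 0.0208 (limma). Within lane 2, which held 2 libraries of each group, the member median was 0.28, against 0.12 for all genes, and 63 of 64 members were above 0. Lane 2 leaves out RYGB library 4, the RYGB library with the lowest member median (0.02), and sham library 3, the sham library with the highest (0.08).

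In ileum, Ndufb6 rose and no other of the 63 members passed; 7.97% of all genes did, 2.29% as higher and 5.68% as lower. At an unadjusted p under 0.05, 26 members were higher and 0 lower, against 7.86% and 18.6% of all genes. The fold change was above 0 for 62 of 63 members, against 38.4% of all genes, and the exception was Atp5sl. Ndufb6, an accessory subunit in the membrane arm of complex I, lies at chr4:40270591-40279421 on the minus strand (ENSMUSG00000071014). RYGB libraries 1 to 5 had 35.6, 49.9, 29.2, 50.7 and 53.9 CPM and sham libraries 1 to 5 had 23.9, 28.3, 25.5, 16.4 and 29.0 CPM. The groups did not overlap, with RYGB library 3 only just above sham library 5; 2.42% of all genes had this pattern. The means were 43.9 ± 10.8 and 24.6 ± 5.04 CPM (SD, n = 5 each), and Ndufb6 rose by 0.80 (SE 0.199, limma adjusted p = 0.033). It passed in 10 of 16 settings. Of its 50-base windows 34.1% also lie in Smim27, which overlaps it on the opposite strand, and the strand setting of the counting is not given in the sources used here.

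The members next in line were Uqcrq, a small complex III subunit, at 105.3, 133.3, 81.9, 129.5 and 161.6 CPM after RYGB and 86.0, 86.0, 75.5, 67.1 and 89.0 CPM in sham (0.56, SE 0.166, limma adjusted p = 0.0581). RYGB library 3 fell inside the sham range and the other 4 did not. Ndufa2, an accessory subunit of complex I, had a fold change of 0.50 (adjusted p = 0.0617), Ndufs4, an accessory subunit whose loss causes a mitochondrial encephalopathy, 0.61 (adjusted p = 0.0733) and Uqcrb, a complex III subunit, 0.47 (adjusted p = 0.0835). The complexes had like medians: 0.41 for complex I, 0.34 for complex II, 0.43 for complex III and 0.40 for ATP synthase. At the low end, Ndufs1 had 0.18 (adjusted p = 0.523).

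The ileum libraries fell into high and low ones. The median member deviation from the sham mean was 0.62, 0.69 and 0.73 (log2) in RYGB libraries 2, 4 and 5, and 0.06 and −0.13 in RYGB libraries 1 and 3. Sham libraries lay between −0.29 and 0.23. In RYGB library 3 the median over all genes was −0.32, the lowest of the ileum libraries. After rescaling, 34 of 63 members passed, all higher, against 11.9% of all genes, and without RYGB library 3 it was 19, against 8.09%. All RYGB libraries of ileum were run in 1 lane and the sham libraries in 2 others, so an effect of the lane and of the operation cannot be told apart. The 4 listed T cell markers all passed as lower, at 4.1 to 16.4 CPM after RYGB against 22.7 to 59.2 CPM in sham, while the enterocyte sums overlapped, at 49662 to 73180.4 and 34988 to 62441 CPM, with 1 of 6 markers (Lct) passing as lower. The part of cell makeup was not tested.

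**Figure D5:**
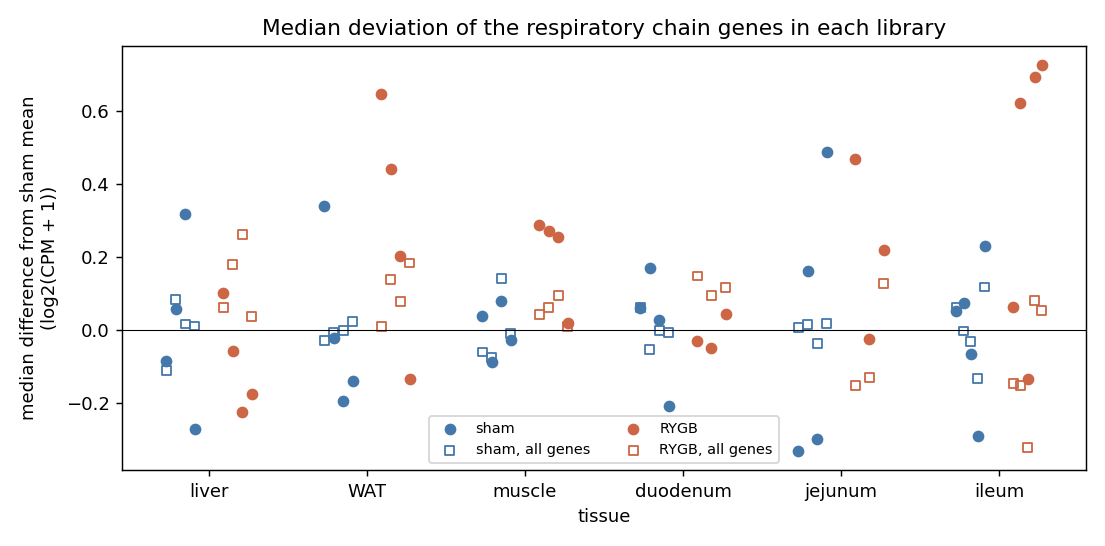
Median log2 deviation from the sham mean of the members (filled points) and of all genes (open squares) for each library, by tissue and surgery. In ileum, RYGB libraries 2, 4 and 5 sit at 0.62 to 0.73 and libraries 1 and 3 at 0.06 and −0.13; in WAT, RYGB libraries range from 0.65 to −0.13.

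In jejunum, 0 of 63 members passed with limma, against 9.81% of all genes, 4.64% as higher and 5.17% as lower. At an unadjusted p under 0.05, 6 members were higher and 0 lower, against 10.8% and 13.8% of all genes, and 6 members had every RYGB library above every sham library, against 9.75%. The fold change was above 0 for 57 of 63 members, against 45.5% of all genes. The complex III core proteins came out with the smallest p. Uqcrc2 had 434.5, 362.1 and 442.9 CPM in RYGB libraries 1 to 3 and 251.0, 342.6, 269.4 and 279.0 CPM in sham libraries 1 to 4 (0.54, SE 0.171, limma adjusted p = 0.0796). Uqcrc1 had 550.4, 501.0 and 579.0 CPM against 315.4, 425.5, 337.2 and 432.3 CPM (0.54, SE 0.176, adjusted p = 0.0878). Neither pair of groups overlapped.

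Subunits of ATP synthase and complex II followed. Atp5a1 had 1863.7, 1683.1 and 1855.6 CPM in RYGB jejunum and 1049.6, 1410.3, 1159.7 and 1374.8 CPM in sham jejunum (0.54, SE 0.181, limma adjusted p = 0.095). Sdha had 690.7, 680.2 and 748.6 CPM against 472.1, 636.8, 532.3 and 507.6 CPM (0.40, SE 0.166, adjusted p = 0.168). Both sets were free of overlap, as was Atp5b (0.42, adjusted p = 0.179). Ndufa4 had a fold change of −0.14 (adjusted p = 0.793). The sham libraries differed among themselves: sham library 1 was above the sham mean for 0 of 63 members and sham library 3 for 1, while sham libraries 2 and 4 were above it for 60 and 59.

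Cell markers also differed between the groups in jejunum. The 6 enterocyte markers summed to 32476 to 54063 CPM after RYGB against 64276 to 82416 CPM in sham. By gene they were mixed, with 2 of the 6 above 0 and 4 below. Those passing as lower were 2 of 6 (Lct, the brush border lactase, and Apoa4, a secreted apolipoprotein). The 5 listed T cell markers all passed as lower, at 6.6 to 14.9 CPM against 35.4 to 58.0 CPM. Of the goblet and Paneth cell markers, Lyz1 and Defa24, both made by Paneth cells, passed as higher, by 2.05 and 1.96. Their part in the member values was not tested. The median member deviation from the sham mean was 0.47, −0.02 and 0.22 (log2) in RYGB libraries 1 to 3. In sham libraries 1 to 4 it was −0.33, 0.16, −0.30 and 0.49, so sham library 4 lay above every RYGB library. Within lane 1, with 2 RYGB and 4 sham libraries, the member median was 0.33, against 0.00037 for all genes, and 60 of 63 members were above 0. Lane 1 leaves out RYGB library 2, the lowest RYGB library.

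In duodenum, 0 of 63 members passed with limma, against 0.00922% of all genes, and 0 had an unadjusted p under 0.05 in either direction, against 15% of all genes as higher and 3.8% as lower. No member had every RYGB library above every sham library or below it, against 12.7% and 2.93% of all genes. Positive fold changes were found for 31 of 63 members, against 66.6% of all genes, and after rescaling for 9 of 63. In ATP synthase, of the 5 genes of the F1 head and stalk 4 were above 0, with a median of 0.10, and of the 8 genes of Fo and the peripheral stalk 1 was above 0, with a median of −0.16. A difference between these parts was not tested. Uqcrb had 42.7, 48.7 and 47.6 CPM in RYGB libraries 1 to 3 and 68.1, 66.6, 67.1 and 39.7 CPM in sham libraries 1 to 4 (−0.34, SE 0.203, limma adjusted p = 0.389). Sham library 4 was below every RYGB library while the other 3 were above them. Atp5h had 57.2, 55.4 and 54.5 CPM against 74.4, 73.7, 74.6 and 48.2 CPM in the same order (−0.26, adjusted p = 0.458). Ndufc1 (−0.35, adjusted p = 0.448) and Ndufs4 (−0.28), accessory subunits of complex I, had negative fold changes too. Ndufa11, another accessory subunit, was positive, at 48.6, 48.7 and 53.2 CPM against 43.8, 50.3, 32.0 and 42.5 CPM with overlap (0.26, adjusted p = 0.408). Without sham library 4, Uqcrb fell by 0.53 on the log2 scale (limma adjusted p = 0.0406), the 1 member called then, against 7.17% of all genes. Markers of other cells differed between the groups in duodenum, although 0 passed with limma. The 3 listed crypt and cycling cell markers summed to 26.1 to 119.2 CPM after RYGB and 3.8 to 20.2 CPM in sham, and the 5 T cell markers to 38.8 to 89.2 and 11.8 to 45 CPM. The goblet and Paneth cell markers summed to 5078 to 7364 CPM after RYGB and 1858 to 6587 CPM in sham, and the 6 enterocyte markers to 33429 to 43121 CPM and 42190.4 to 53265 CPM. By gene, 2 of the 6 enterocyte markers were above 0 and 4 below. The 1 listed marker of pancreatic acinar cells ranged from 5.9 to 518 CPM after RYGB and from 7.1 to 4817 CPM in sham. Their part in the member values was not tested.

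In liver, 0 of 64 members passed with limma, against 8.61% of all genes, 7.03% as higher and 1.58% as lower. At an unadjusted p under 0.05, 1 member was higher and 4 lower, against 22% and 4.91% of all genes, and 0 were free of overlap in either direction, against 13.4% above and 3.05% below. Positive fold changes were found for 16 of 64 members, against 71% of all genes, and after rescaling for 4. The member that was higher at this level was Atp5s, a coupling factor of ATP synthase that is not a structural subunit, at 10.1, 9.8, 8.5 and 7.4 CPM after RYGB and 6.6, 5.8, 7.4 and 7.2 CPM in sham (0.36, SE 0.135, limma adjusted p = 0.12). Its RYGB library 4 equalled the highest sham library.

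The 4 liver members that were lower at this level were Ndufv3, Ndufa6, Atp5k and Uqcr11, with coding lengths of 1404, 393, 213 and 168 bases. Ndufv3 had 61.3, 52.7, 42.7 and 42.1 CPM after RYGB and 62.5, 61.9, 64.8 and 57.9 CPM in sham (−0.32, SE 0.129, limma adjusted p = 0.136). RYGB library 1 lay within the sham range and the other 3 below it. Ndufa6, an accessory subunit of complex I, had 129.0, 94.3, 95.0 and 96.1 CPM against 118.1, 134.3, 136.7 and 113.6 CPM (−0.28, adjusted p = 0.178), with the same library apart. Atp5k, the e subunit of ATP synthase, had a fold change of −0.37 (adjusted p = 0.154) and Uqcr11, a small complex III subunit, −0.36 (adjusted p = 0.176). Without RYGB library 1, Ndufv3 and Ndufa6 passed as lower, with limma adjusted p of 0.0409 and 0.0458, against 12.6% of all genes. Among the catalytic subunits, Sdha had a fold change of −0.07 (adjusted p = 0.838), while Atp5b had 1531 ± 41.1 and 1330 ± 416 CPM (0.26, adjusted p = 0.447; SD, n = 4 each) and the core subunit Ndufs1 had 0.23 (adjusted p = 0.451). Neutrophil markers passed as higher for 3 of 5 genes, at 36.5 to 479 CPM after RYGB against 12.1 to 18.6 CPM in sham, and macrophage markers for 1 of 8, while 0 of 5 hepatocyte markers passed. Cela1, the 1 listed acinar cell marker, passed as lower, at 10.0 to 12.2 CPM against 25.5 to 38.0 CPM. Their part in the member values was not tested.

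The fold change was related to the size of the gene product across members. Over members, Spearman's rho between the fold change and the coding length (median 465 bases, range 156 to 2181) was 0.45 in liver (n = 64), 0.37 in muscle (n = 64), 0.37 in duodenum (n = 63), 0.35 in jejunum (n = 63) and 0.21 in WAT (n = 64), and −0.41 in ileum (n = 63). With exon length, rho over members was 0.40 in liver, 0.32 in muscle, 0.30 in jejunum, 0.21 in WAT, 0.10 in duodenum and −0.29 in ileum. Over all genes with a length it was 0.16, 0.02, −0.01, −0.04, 0.12 and −0.24 in the same order, so in duodenum and ileum the members were close to all genes. In liver, the 32 shorter members had a median fold change of −0.12 and the 32 longer ones −0.03. In ileum, the 31 shorter members had 0.43 and the 32 longer ones 0.38. These are relations across genes that share the same libraries, and genes are not independent replicates.

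The promoters of the members shared several motifs. RefSeq windows of 300 bases, from 250 before to 50 after the start of a gene (GRCm38.p6), were found for 54 of 64 members and gave 60 windows. The palindromic motif of NRF1, a known activator of respiratory chain genes, was in 26.7% of the member windows and in 4.6% of all 32851 windows. CCGGAAG, the core of the ETS family to which GABPA belongs, was in 20% and 8.86%, AANATGGCG of YY1 in 20% and 2.38%, and TNAAGGTCA of the oestrogen-related receptors in 5.0% and 1.28%. TATAAA was in 8.3% and 13.62%. Both strands were searched, the motifs were scored separately whether or not they overlapped, and a match is a description and not a bound site. The stretches just upstream of the annotated gene are shown for the subunits of a complex that rose in WAT or ileum and had a window free of other exons, 5′ to 3′ on the minus strand, with matches in capitals. They are Uqcrh (chr4:116075072-116075230), Atp5e (chr2:174464106-174464261), Atp5h (chr11:115419963-115420079) and Ndufb6 (chr4:40279422-40279581).
Uqcrh: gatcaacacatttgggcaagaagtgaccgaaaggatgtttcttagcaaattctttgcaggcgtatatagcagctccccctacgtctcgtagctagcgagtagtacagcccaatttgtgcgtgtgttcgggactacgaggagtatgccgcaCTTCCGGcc
Atp5e: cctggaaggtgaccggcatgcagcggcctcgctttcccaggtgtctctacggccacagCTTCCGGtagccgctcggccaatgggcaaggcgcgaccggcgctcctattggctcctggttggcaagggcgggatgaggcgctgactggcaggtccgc
Atp5h: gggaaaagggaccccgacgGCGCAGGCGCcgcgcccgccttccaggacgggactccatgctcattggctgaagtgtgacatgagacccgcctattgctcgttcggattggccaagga
Ndufb6: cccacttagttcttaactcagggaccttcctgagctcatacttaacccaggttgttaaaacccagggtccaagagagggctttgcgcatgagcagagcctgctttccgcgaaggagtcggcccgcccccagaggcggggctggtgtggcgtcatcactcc
Uqcrh and Atp5e held the ETS core on the opposite strand (CTTCCGG), Atp5h held the NRF1 motif, and the Ndufb6 stretch held none of the 5 motifs. Outside these stretches, the windows of Atp5h and Ndufb6 held the ETS core as well. Nothing about the factors follows from these matches.

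Genes around the members were read from lists of the pathway. In WAT, Tfam, the packaging and transcription factor of mitochondrial DNA, rose by 0.79 (SE 0.135, limma adjusted p = 0.00421). Esrra, an oestrogen-related receptor, rose by 0.54 and Nrf1 by 0.44, and with Polrmt, the mitochondrial RNA polymerase, they made 4 of 13 tested regulators higher and 0 lower. Of the tested genes of the complex IV list, 2 of 14 rose, Cox7c by 0.70 and Cox7a2l by 0.54. Of the electron carriers and ubiquinone enzymes, 4 of 15 rose, among them Gpd2, the mitochondrial glycerol phosphate dehydrogenase, by 1.02 and Dhodh, of pyrimidine synthesis, by 0.50. Assembly factors of complex I rose for 2 of 16 genes (Ndufaf4 by 0.43, Foxred1 by 0.29). Those of complexes II, III and V rose for 3 of 15, with Sdhaf1 at 0.56 and Lyrm7 at 0.54. The 1 gene of that list that fell was Atpif1, the inhibitor of ATP synthase, by 0.27, named after its value was seen. Of the listed mitochondrial carriers and porins 2 of 6 rose, Slc25a5 by 0.44 and Slc25a3 by 0.41. Of the citrate cycle enzymes 0 of 13 passed. Against the 23.5% of all WAT genes that were higher, these shares range from 0 of 13 to 2 of 6.

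Few list genes passed elsewhere. In ileum, Cox7a1, the muscle-type isoform of a complex IV subunit, rose from 26.2 ± 4.99 to 64.0 ± 19.5 CPM (SD, n = 5 each; 1.22, SE 0.22, limma adjusted p = 0.011), the 1 of 12 complex IV genes to pass. Etfb, which brings electrons from fatty acid oxidation, rose by 0.79 and Gpd2 by 0.65 in ileum, 2 of 15 carriers. Of all ileum genes, 2.29% passed as higher. In liver, mt-Nd6, a complex I subunit encoded by mitochondrial DNA, fell by 0.94 on the log2 scale (SE 0.243, limma adjusted p = 0.0395), and 0 of 10 mitochondrially encoded subunits were above 0, with a median of −0.53. Ppargc1a, a coactivator of mitochondrial genes, rose in liver from 13.5 ± 1.87 to 22.9 ± 4.35 CPM (SD, n = 4 each; 0.72, SE 0.151, adjusted p = 0.0195), the 1 of 14 regulators to pass there. Of all liver genes, 7.03% passed as higher and 1.58% as lower, so the share of regulators was near that of all genes. In muscle, duodenum and jejunum no gene of these lists passed with limma, against 0%, 0.00922% and 9.81% of all genes.

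The subunits outside the 64 had medians of the same sign as the members in most tissues. The complex IV median was 0.38 in WAT, 0.24 in muscle, 0.48 in ileum, 0.36 in jejunum, −0.10 in duodenum and −0.13 in liver. The mitochondrially encoded subunits had medians of 0.23 in WAT, 0.40 in muscle, 0.47 in ileum and 0.07 in jejunum, and 0.39 in duodenum, where the member median was −0.00. The citrate cycle median was 0.29 in WAT, 0.23 in muscle, 0.31 in ileum, 0.34 in jejunum, −0.03 in duodenum and 0.10 in liver. Ppargc1a did not follow this order, with −0.70 in ileum (limma adjusted p = 0.153) and −0.87 in jejunum (adjusted p = 0.181), neither of which passed.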

How the data were processed

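RNA of 48 mouse libraries was sequenced by the submitters, and gene counts were made with HTSeq on GRCm38 per the submitters' processing notes. The aligner and annotation are not given in the sources used here. The tables deposited by the authors, 1 per tissue, hold CPM (counts scaled to a common library total) rounded to 0.1, with no totals, so depth is unknown. With each gene counted once, the deposited CPM columns summed to between 925122 and 998777. Other columns deposited by the authors could not be called CPM as they stand, since in jejunum and ileum repeated lines lift the sum and in 1 liver sham column shifted lines hold another quantity. Once those lines were dropped they were used as CPM.

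Lines repeated for 1 gene held the same values and were counted once, and 12 liver lines lacking a value were left out. RYGB was compared with sham surgery within each tissue using limma 3.58.1 in R 4.3.3 on log2(CPM + 1), with a mean-variance trend and genes of mean CPM of at least 1. Python 3.11.15, pandas 2.3.3, numpy 2.4.6 and matplotlib 3.10.9 were used for the rest. Adjusted p-values cover all genes of the tissue. The text names the members called, the 5 of smallest p in each tissue but WAT, and a fixed set of catalytic, anchor and c-ring genes and the Ndufa4 pair. Other members were named after their values were seen. The values of 1 member are not reported here. The members, roles and gene lists were chosen with earlier results of these data known. Tested on simulated data with 100 genes changed by 1 on the log2 scale and 100 by 0.5, the fit recovered 64 in WAT (20 at a change of 0.5), 79 in liver (13), 78 in muscle (31), 60 in ileum (11), 38 in duodenum (2) and 9 in jejunum (0). Correlations of deviations between libraries of the same replicate number ran from −0.281 to 0.389 and did not exceed 0.1 for every number in any tissue, so the numbers were not taken as pairs. Alternatives were another pseudocount (0.1), no minimum, a minimum of 10 CPM, rescaling by median ratio, the lane as a covariate, a replicate block, a fold of at least 1.5 and leaving out each library.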

Additional observations from a re-analysis of the deposited data

Results flagged for a closer look

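Of 50 groups of 4 or 5 libraries of the named members tested for a single distant library, 6 had one, and chance gives about 1 in 20, or 2.5 of 50. The value in each case is the gap to the nearest library as a share of the whole range of the group.

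In duodenum, sham library 4 was the distant one for 3 members, with Atp5h at 48.2 CPM (share 0.972), Uqcrb at 39.7 CPM (0.959) and Ndufs4 at 60.8 CPM (0.847). In WAT, sham library 1 stood apart for Uqcrh at 112.6 CPM (0.902), and sham library 2 for Atp5sl at 17.5 CPM (0.863). In liver, RYGB library 1 stood apart for Ndufa6 at 129.0 CPM (0.94).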

How the results depend on the processing

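The number of members called depended on the setting. In WAT, where 5 passed, it was 2 after rescaling by median ratio, 2 with the lane as a covariate, 2 with a fold of at least 1.5 and 1 to 22 with a library left out. The 22 came without RYGB library 4, 9 without sham library 1, 3 without RYGB library 1 or 2, 2 without RYGB library 3 or sham library 3, and 1 without sham library 2 or 4. Of all WAT genes, 40.3% passed after rescaling, 43.9% with the lane and 24.1% with the fold. With a library left out it was 23.2% to 41.8%. In ileum, where 1 passed, it was 34 after rescaling and 0 to 19 with a library left out: 19 without RYGB library 3, and 0 without RYGB library 2, 4 or 5 or sham library 1, 3 or 4. Of all ileum genes, 11.9% passed after rescaling and 3.14% to 8.94% with a library left out. In liver it was 0 to 2 with a library left out, in muscle 0 to 5 and in duodenum 0 to 1, with the highest counts without RYGB library 1, RYGB library 4 and sham library 4. Those highest counts stood against 12.6%, 2.1% and 7.17% of all genes in liver, muscle and duodenum. In jejunum it was 0 in every setting run. With a library left out, the member median ran from 0.17 to 0.43 in WAT, 0.31 to 0.52 in ileum, 0.10 to 0.37 in jejunum, 0.17 to 0.26 in muscle, −0.06 to 0.05 in duodenum and −0.18 to 0.01 in liver, and after rescaling the duodenum median was −0.13. The cause was not tested.

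With the replicate block, 20 members passed in WAT, 19 of them higher, against 36.2% of all genes, 23.0% as higher. In muscle 1 member passed with the block (Sdhb, limma adjusted p = 0.0254), against 1.66% of all genes. The number of calls in the other 4 tissues was as without the block, and Ndufa4 in jejunum had 0.037. The numbers were not taken as pairs, so the block is given here only.

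Some named members close to 0 changed sign, and none of them had passed. After rescaling, in liver Atp5g1 had −0.070, Sdhc −0.12, Sdhd −0.10 and Uqcrfs1 −0.10, in WAT Atp5g1 had −0.00048 and Sdhc −0.043, and in duodenum Atp5b had −0.028 and Sdhb −0.029. With the lane as a covariate, in WAT Atp5g3 had −0.049 and Sdhc −0.15, and in jejunum Ndufa4 had 0.080. With a library left out, the values in liver ran from −0.011 to 0.18 for Atp5g1, −0.25 to 0.040 for Sdha, −0.063 to 0.16 for Sdhc, −0.027 to 0.15 for Sdhd and −0.050 to 0.22 for Uqcrfs1. In WAT they ran from −0.057 to 0.21 for Atp5g1 and −0.083 to 0.25 for Sdhc. In duodenum they ran from −0.16 to 0.0038 for Atp5g1, −0.10 to 0.057 for Atp5g3, −0.025 to 0.23 for Ndufa4 and −0.11 to 0.037 for Ndufs1. In jejunum they ran from −0.021 to 0.28 for Atp5g3, −0.26 to 0.080 for Ndufa4 and −0.032 to 0.25 for Sdhb. Over the 88 named values and their alternatives, 1102 kept direction and side of the threshold, 35 changed sign, 31 lost a call and 27 gained one. The lane could not be fitted in ileum and duodenum, where it matched the surgery or was the same for all libraries. Depth is unknown, so its limits cannot be given.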
